A study of Homo sapiens with 15 samples.

Results

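Loss of YBX1 was examined in SCC25, an oral squamous cell carcinoma line, in 6 of the 15 libraries of the series: 3 SCC25 –YBX1 libraries and 3 SCC25 +YBX1 libraries, taken by their labels. The –YBX1 cells carried mCherry-marked Cas9 and, with GFP as its marker, a YBX1 guide RNA that doxycycline switches on, were sorted as double-positive cells and were expanded as a pool, not as a clone. The sample titles name both groups after the YBX1 construct, whereas the study's text calls the +YBX1 cells parental, so whether the +YBX1 cells carried the construct rests on the titles alone. The –YBX1 group received doxycycline at 1 µg/ml and the +YBX1 group did not, and the labels give 3 days for both and call the genotypes YBX1 knockout and wild type. The cells grew in keratinocyte serum-free medium with EGF. No doxycycline-treated cells without the YBX1 guide are among the libraries used here, so doxycycline and loss of YBX1 cannot be told apart. The comparison asks which mRNAs differ when YBX1 is reduced in a basal-like oral cancer line.

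YBX1 encodes YB-1, a cold-shock domain protein that binds DNA and RNA. In the cytoplasm it coats mRNAs and influences how well they are translated and how long they last. In the nucleus it has been described at promoters with an inverted CCAAT (Y-box) element, and AKT and RSK kinases of the growth factor pathways phosphorylate it. It is abundant in many carcinomas and has been tied to proliferation, splicing and stress granules.

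Levels are given as log2 CPM, the log2 of a gene's reads in CPM units after the authors' normalisation. The libraries read the 3′ end of each mRNA. The normalised values are scaled per library, so CPM values and their sums are not plain shares of the counted reads. A difference of 1 in log2 CPM is a 2-fold difference. Between 5291503 and 6090488 reads were counted per SCC25 library, where 1 read was worth 0.188 to 0.208 CPM. The basal keratins that define such cells were abundant in all 6 libraries, with KRT5 between 10.86 and 12.92 and KRT14 between 9.82 and 12.28. In such bulk libraries fewer cells of a type and less RNA per cell cannot be told apart. SCC25 –YBX1 replicate 2 stood apart. Its 10 most abundant genes took 16.2% of reads against 11.4% to 12.5% in the other 5 libraries. Among 6497 genes above the median level it was over 2-fold above every other SCC25 library for 44 genes and over 2-fold below for 38, against at most 14 genes in one direction for any other library. Values without this library are therefore given beside the results that rest on it. The labels do not say whether replicates were separate cultures, so p-values measure the spread between these libraries. No library was a copy of another: between replicates of a group the chi-square of the read counts was 10.0 to 44.7 times its degrees of freedom.

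YBX1 (ENSG00000065978, chromosome 1, 42682418 to 42703805, forward strand, hg38) was at 6.74, 6.31 and 6.62 log2 CPM in +YBX1 replicates 1 to 3 and at 5.26, 4.70 and 3.65 in –YBX1. These levels came from 568, 401 and 471 reads in +YBX1 and from 193, 134 and 65 reads in –YBX1. Every –YBX1 library lay below every +YBX1 library, and YBX1 mRNA was still read in each of them. In the same-numbered pairs 36.0%, 33.0% and 12.8% of the mRNA was left. The log2 change was -2.01 (SE 0.35), with an adjusted p of 0.290 over all genes in limma, which misses the threshold of 0.05. An exact two-sided permutation test of the 3 and 3 libraries gave p = 0.1, the smallest that this design allows. By the unadjusted p, YBX1 ranked first among the 6497 genes above the median level. Reads at the 3′ end measure how much mRNA was present, not whether the coding sequence was cut.

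A close relative of YBX1 overlapped between the groups. YBX3, the cold-shock domain paralogue expressed in most epithelia, was at 7.96, 7.86 and 8.07 in +YBX1 and 7.77, 7.93 and 8.03 in –YBX1, a log2 change of -0.05 (SE 0.13). Around the locus, 21 genes of the table lay within 1 Mb of YBX1. Their median log2 change was -0.14, and 0 had an unadjusted p under 0.05. In –YBX1 16 were lower and 5 higher, where 53.4% of all genes were lower. Pair 3, where least YBX1 was left, gave a median of -0.35 over these neighbours, with 17 of 21 lower (81.0%, against 52.9% of all genes in that pair). In pairs 1 and 2 the neighbours' medians were 0.00 and -0.01, and a link to the YBX1 mRNA left was not tested. The neighbours without overlap between the groups were FOXJ3 (-0.20, SE 0.18), HYI (-0.42, SE 0.24) and CDC20 (-0.27, SE 0.25), all lower in –YBX1. They make 14.3% of the 21, against 3.76% of all genes lower without overlap. PPIH, a spliceosome cyclophilin and the nearest measured gene upstream of YBX1, differed by -0.12 (SE 0.18).

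Across the 12995 genes, 0 (0%) had an adjusted p under 0.05 in limma, and 0 with voom weights on the recovered reads. At an unadjusted p under 0.05, 177 genes were higher (1.36%) and 224 lower (1.72%) in –YBX1. With voom weights these were 134 and 160. With the replicate number as a block they were 325 and 395, and without –YBX1 replicate 2 they were 238 and 399. Unless the block is named, SEs and limma p-values come from fits without it. The 3 libraries of each group did not overlap for 462 genes that were higher (3.56%) and 488 that were lower (3.76%). In all 3 pairs 11% of genes were higher and 11.5% lower, and the difference was at least 0.5 in each pair for 138 genes (1.06%) upward and 93 genes (0.716%) downward. Adjusted p-values lay between 0.290 and 0.330 for 8 genes and at 1.00 for all others, so no gene named from here on passed the adjusted test. The 8 were YBX1 and 7 genes with few reads. Of these, ADGRL1, an adhesion receptor, had 3, 3 and 5 reads in +YBX1 and 0, 1 and 0 in –YBX1, and ZNF225 had 18, 11 and 4 against 1, 1 and 0.

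**Figure D1:**
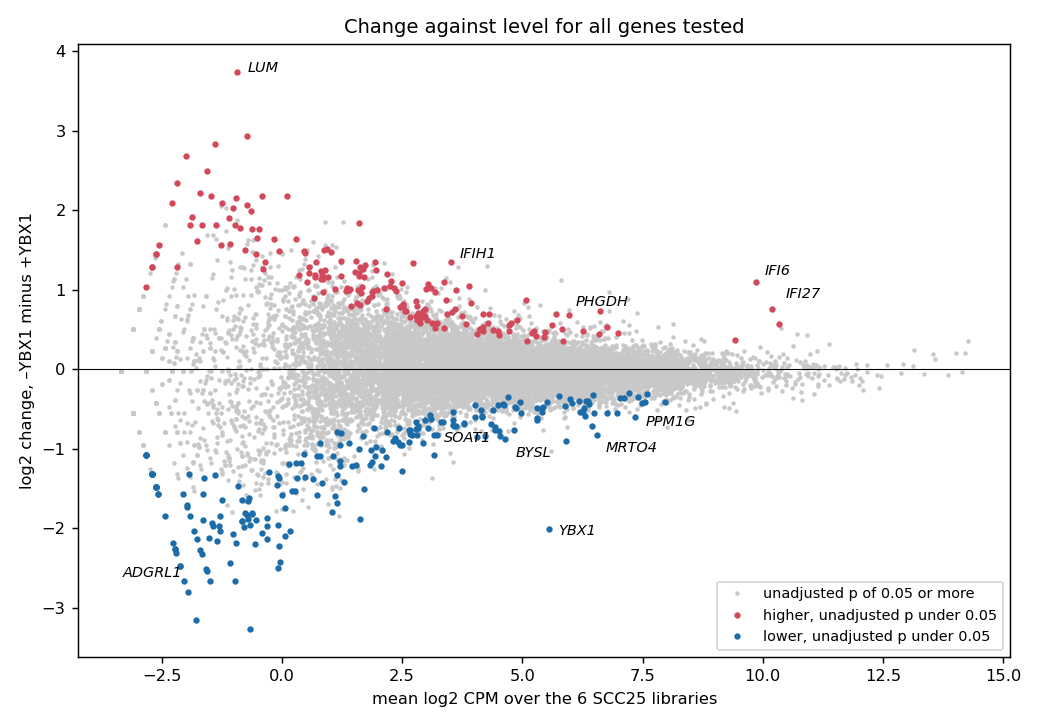
Log2 change between –YBX1 and +YBX1 (vertical axis) against the mean level in log2 CPM over the 6 SCC25 libraries (horizontal axis), 1 point a gene for 12995 genes. Coloured points have an unadjusted p under 0.05 (177 higher, 224 lower). YBX1 at -2.01 lies below every other coloured gene of similar or higher level, and the widest changes lie among genes of few reads.

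Above the median level, 25 genes were higher in –YBX1 without overlap at an unadjusted p under 0.05. Named are the 10 with the largest change and the 10 with the largest smallest change over the pairs. EXOC1, a subunit of the exocyst that tethers secretory vesicles, was at 4.27, 3.97 and 3.65 in +YBX1 and 4.80, 4.52 and 4.66 in –YBX1. Its log2 change was 0.70 (SE 0.22), at least 0.53 in each pair, and 0.77 without –YBX1 replicate 2. ACOT13, a mitochondrial acyl-CoA thioesterase, was at 5.39, 5.00 and 5.69 against 6.01, 6.14 and 6.00, a change of 0.69 (SE 0.19). PHGDH, the first enzyme of serine synthesis, was at 5.68, 5.58 and 5.62 in +YBX1 and at 6.17, 6.96 and 5.78 in –YBX1. The groups did not overlap, but replicate 2 carried much of the mean, and the change of 0.68 (SE 0.24) was 0.35 without it. NBR1, an autophagy receptor, was 0.44 higher (SE 0.15), and CBS, which condenses homocysteine with serine, was 0.43, 0.41 and 0.42 higher in pairs 1 to 3. CBS has a near-identical annotated copy in hg38, so its reads may be split. ARMCX3 (0.58), CLDN12, a claudin (0.56), RALGPS2 (0.56), OGA, which removes O-GlcNAc from proteins (0.48), and ZNF318 (0.48) were likewise higher in each pair. C1R, a protease of the complement cascade (0.74), and TIMP2, a metalloproteinase inhibitor (0.54), were highest in –YBX1 replicate 2 and gave 0.46 and 0.35 without it. MYLK, a myosin light chain kinase (0.62), and SKAP2 (0.58) also belonged to the 10 largest differences and gave 0.44 and 0.38 without it. Of the 25 genes, 13 kept an unadjusted p under 0.05 without –YBX1 replicate 2.

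By the same criteria 40 genes were lower in –YBX1, YBX1 included. MRTO4, which acts in the assembly of the large ribosomal subunit, was at 6.89, 7.05 and 6.95 in +YBX1 and at 6.23, 6.19 and 5.98 in –YBX1. The groups lay well apart, the change was -0.83 (SE 0.31), and it was -0.86 without –YBX1 replicate 2. SOAT1, which esterifies cholesterol for storage, was at 5.21, 5.12 and 4.93 against 4.35, 4.02 and 4.27, and its change of -0.87 (SE 0.26) came from -0.86, -1.10 and -0.66 in the pairs. PPM1G, a nuclear phosphatase linked to splicing, was at 7.61, 7.85 and 7.47 against 6.99 to 7.14, a change of -0.60 (SE 0.16). BOD1, needed for chromosome biorientation, differed by -0.47, -0.49 and -0.51 in the 3 pairs. KDM1A, a histone lysine demethylase, was 0.95, 0.68 and 0.29 lower in pairs 1 to 3, MBD3, a subunit of the NuRD complex, differed by -0.76 (SE 0.33), and SUPT6H, a histone chaperone of transcribing polymerase, by -0.62 (SE 0.27). THOC5, part of the THO complex of mRNA export, differed by -0.55 (SE 0.18) and MAZ, a zinc finger transcription factor, by -0.71 (SE 0.30). The genes named on either criterion also included DANCR, a long noncoding RNA that hosts snoRNAs (-0.84), SCAMP4 (-0.68), HOOK3 (-0.49), and the ribosome factors BYSL, UTP14A and PAK1IP1. Without –YBX1 replicate 2, DANCR was at -0.40 and UTP14A and PAK1IP1 at -0.50 each, and 20 of the 40 genes kept an unadjusted p under 0.05.

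Interferon-stimulated effectors had the highest median of the lists in –YBX1, with replicates far apart. Type I and III interferons signal through receptor-bound kinases to promoters with an interferon-stimulated response element (ISRE), and the products block virus entry, translation and replication. Of 63 measured effectors, 58 were higher in –YBX1, with a median log2 change of 0.52 against -0.02 over all genes. At an unadjusted p under 0.05, 4 were higher and 0 lower (1.36% and 1.72% of all genes), and with the replicate block 11 were higher, against 2.5% of all genes. The medians were 0.39, 1.09 and 0.22 in pairs 1 to 3, and 52, 62 and 39 of the 63 were higher in those pairs. In all 3 pairs 31 effectors were higher (49.2%, against 11% of all genes) and 0 were lower. Pairs 1 and 3 alone give the same count of 31, against 23.2% of all genes. The summed effector level was 4937, 5913 and 4214 CPM in +YBX1 and 7957, 13760 and 4411 CPM in –YBX1. Replicate 2 was the highest and replicate 3 the lowest in both groups, and the ratio within pairs was 1.61, 2.33 and 1.05. Pair 3, with the least YBX1 mRNA left, had the smallest ratio, and a link between them was not tested. Leaving out –YBX1 replicate 2 alone brought the median to 0.03 and the count at an unadjusted p under 0.05 to 0 in either direction, and leaving out both libraries numbered 2 gave 0.22.

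The start-proximal sequence of the effectors shows what they share apart from their function. The 9-letter ISRE core GAAANNGAA (N is any base, either strand, overlaps allowed) was searched from 250 bases before to 50 after each start in RefSeq (GRCh38.p14). It was in at least 1 window of 39 of 53 effectors with a promoter entry (73.6%), against 859 of 10250 genes tested (8.38%) and 8.11% of all 35116 windows. The median change was 0.52 for effectors with the core and 0.45 for the 14 without. Over all genes tested it was 0.01 with the core and -0.02 without. Shown, because they let the element be seen beside the values, are the 4 effectors with the smallest unadjusted p among those with a core between 160 and 61 bases before the start. Each stretch covers those bases, 5′ to 3′ along the gene, with the cores in capitals. In IFI27 the first core lies on the opposite strand, and in ISG15 the cores overlap.
IFI6 (chr1:27672253-27672352, reverse strand): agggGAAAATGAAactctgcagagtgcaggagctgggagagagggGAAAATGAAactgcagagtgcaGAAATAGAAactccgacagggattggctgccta
PLSCR1 (chr3:146544668-146544767, reverse strand): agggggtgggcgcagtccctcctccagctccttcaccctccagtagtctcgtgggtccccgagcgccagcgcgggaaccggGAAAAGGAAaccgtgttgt
IFI27 (chr14:94110576-94110675, forward strand): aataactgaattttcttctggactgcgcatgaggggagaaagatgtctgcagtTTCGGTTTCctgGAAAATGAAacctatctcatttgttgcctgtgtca
ISG15 (chr1:1013337-1013436, forward strand): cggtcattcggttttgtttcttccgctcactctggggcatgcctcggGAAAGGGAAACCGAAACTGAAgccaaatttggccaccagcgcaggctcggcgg

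IFI6, an endoplasmic reticulum protein that protects against flaviviruses and carries 3 cores in this stretch, was at 9.25, 9.12 and 9.54 in +YBX1 and at 10.79, 10.94 and 9.46 in –YBX1. The pairs differed by 1.54, 1.82 and -0.08, so that it was over 2-fold higher in pairs 1 and 2 and at the control level in pair 3. Its change was 0.82 without –YBX1 replicate 2. IFI27, which bears the paired cores, was at 9.83, 9.75 and 9.84 in +YBX1, at 10.65 and 10.02 in –YBX1 replicates 1 and 3 and 1.26 above its pair in replicate 2. The groups did not overlap, and its change was 0.75 (SE 0.34) and 0.53 without –YBX1 replicate 2. TDRD7, an antiviral protein with tudor domains, was at 3.16, 3.50 and 2.71 against 4.25, 4.91 and 3.19 (0.99, SE 0.39). PLSCR1, a scramblase with a single core in the printed stretch, was at 4.30, 5.34 and 4.27 against 5.43, 6.43 and 4.66 (0.87, SE 0.38). The changes of TDRD7 and PLSCR1 were 0.59 and 0.41 without –YBX1 replicate 2. ISG15, a ubiquitin-like modifier, was at 6.62, 6.87 and 5.47 against 6.97, 8.89 and 6.00. It was higher in every pair while the groups overlapped, and its change of 0.97 (SE 0.55) was 0.17 without –YBX1 replicate 2. IFIT1, which binds uncapped viral RNA, showed the same order of replicates, at 3.53, 5.00 and 2.29 in +YBX1, with means of 3.61 in +YBX1 and 4.91 in –YBX1 (SE of the difference 1.00). The change was 0.05 without that library. IFIT2, its relative, turned from 0.59 (SE 0.90) to -0.64 without it. The groups did not overlap for IFI27, ISG20, MX1, TRIM5 and SP110, 5 of the 63 effectors (7.94%, against 3.56% of all genes). Of these, MX1 was at 0 reads in each +YBX1 library and 1 read in each –YBX1 library, which is counting noise at this depth, and all were named after their values were seen, IFI27 apart.

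Of the sensing and signalling genes upstream of these effectors, 24 were measured. At an unadjusted p under 0.05, 1 was higher (4.17%, against 1.36% of all genes) and 0 lower. The median was 0.24 (0.08, 0.44 and 0.28 by pair). It was 0.08 without –YBX1 replicate 2, with 0 then at an unadjusted p under 0.05, and 0.04 without both libraries numbered 2. IFIH1, which encodes the double-stranded RNA sensor MDA5, was at 2.32, 3.67 and 2.52 in +YBX1 and at 4.15, 4.98 and 3.42 in –YBX1. It was 1.84, 1.31 and 0.90 higher in pairs 1 to 3 (SE of the mean change 0.57), and 0.95 higher without –YBX1 replicate 2. DDX58, the RIG-I sensor, differed by 1.00 (SE 0.91), or 0.38 without that library, and MAVS, the mitochondrial adaptor of both sensors, by -0.08 (SE 0.19). Among 6 measured genes of MHC class I presentation all 6 had positive changes and 0 an unadjusted p under 0.05. B2M, the light chain of class I molecules, was at 10.34, 10.51 and 10.55 against 10.70, 11.19 and 10.41 (0.30, SE 0.20), and differed by 0.09 without –YBX1 replicate 2. Of 18 cytokines and chemokines, 14 had positive changes, with a median of 0.23, or 0.09 without –YBX1 replicate 2, and 0 at an unadjusted p under 0.05. IL36G, an epithelial cytokine of the IL-1 family, was the gene without overlap (5.56%, against 3.56% of all genes). It was at 2.82, 2.76 and 0.64 against 3.27, 2.97 and 3.10. IL1A, IL1B and CXCL8 differed by 0.27 (SE 0.52), 0.20 (SE 0.61) and -0.47 (SE 0.85). The 17 NF-kB targets had a median of 0.04, and SOD2, mitochondrial superoxide dismutase, was 0.57 higher (SE 0.33) and 0.23 higher without –YBX1 replicate 2, with an unadjusted p under 0.05 only with the replicate block.

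Ribosome biogenesis factors were lower in –YBX1 as a list, mainly in replicate 2. These proteins transcribe and process ribosomal RNA in the nucleolus and assemble the subunits. Of 127 measured, 111 had negative changes (87.4%, against 53.4% of all genes) and the median was -0.21. At an unadjusted p under 0.05, 0 were higher and 5 lower, and with the replicate block 15 were lower, against 1.72% and 3.04% of all genes. The 5 were BYSL, UTP14A, MRTO4, DKC1 and WDR43. The groups did not overlap for 13, all lower, against 3.76% of all genes. The medians by pair were 0.03, -0.56 and -0.05, with 59, 115 and 80 of the 127 lower, and 28 were lower in all 3 pairs (22.0%, against 11.5% of all genes). In pairs 1 and 3 alone 29 of them were lower (22.8%), close to the 23.6% of all genes, and without –YBX1 replicate 2 the median was -0.07 and 1 gene was higher and 1 lower at an unadjusted p under 0.05. BYSL, which acts late in small subunit assembly, was at 6.27, 6.57 and 6.26 in +YBX1 and 5.90, 5.14 and 5.35 in –YBX1. It was lower in each pair (-0.37, -1.42 and -0.90), with a change of -0.90 (SE 0.31) and -0.74 without replicate 2, where its unadjusted p was above 0.05. UTP14A, a processome factor, was at 5.30, 5.36 and 4.96 against 4.48, 3.93 and 4.93 and so was nearly level in pair 3. DKC1, the pseudouridine synthase of box H/ACA particles, was at 7.54, 7.92 and 7.82 against 7.28, 7.11 and 7.66 (-0.41, SE 0.17). NOP56, NOP58 and FBL, core proteins of box C/D particles, differed by -0.49 (SE 0.26), -0.19 (SE 0.18) and -0.23 (SE 0.18). Without –YBX1 replicate 2 the changes of DKC1, WDR43, NOP56, NOP58 and FBL were -0.29, -0.26, -0.15, 0.05 and -0.15.

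**Figure D2:**
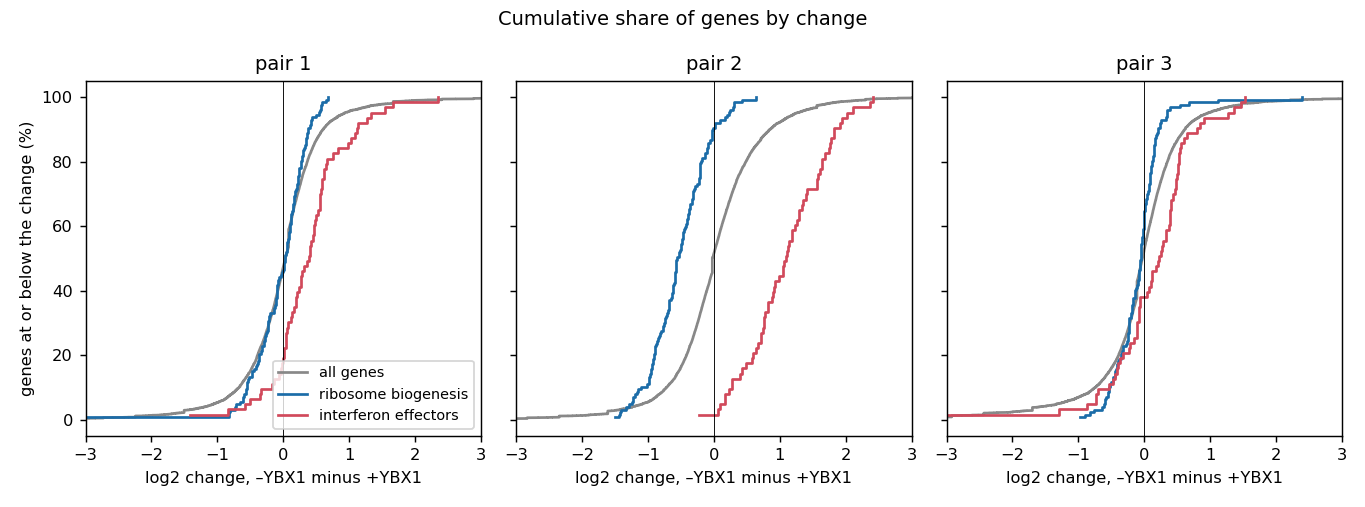
Cumulative share of genes in percent (vertical axis) by log2 change within a same-numbered pair (horizontal axis), for all genes, 127 ribosome biogenesis factors and 63 interferon effectors. At the median the interferon curve lies to the right of all genes in each pair (medians 0.39, 1.09 and 0.22), and the ribosome biogenesis curve lies clearly to the left in pair 2 only (medians 0.03, -0.56 and -0.05).

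MYC, the transcription factor whose targets include many of these genes, was itself at 6.82, 6.65 and 6.38 in +YBX1 and 6.91, 6.94 and 6.62 in –YBX1, a change of 0.20 (SE 0.32). Its 56 measured network members and targets had a median of -0.21, with 47 negative (83.9%, against 53.4% of all genes). The medians were -0.10, -0.52 and -0.14 in pairs 1 to 3. The median over the list was -0.12 when –YBX1 replicate 2 was left out. At an unadjusted p under 0.05, 4 were lower (CAD, BYSL, MRTO4 and WDR43) and 0 higher, or 11 lower with the replicate block, against 1.72% and 3.04% of all genes. In all 3 pairs 16 were lower (28.6%, against 11.5% of all genes) and 1 higher. CAD, which begins pyrimidine synthesis, was at 7.22, 7.43 and 7.11 in +YBX1 and 6.54, 6.77 and 6.79 in –YBX1. Its groups lay apart, and the change of -0.55 (SE 0.18) was -0.58 without –YBX1 replicate 2. ODC1, the first enzyme of polyamine synthesis, differed by -0.73 (SE 0.34) and by -0.35 without that library. The 78 cytosolic ribosomal protein genes had a median of -0.03 (-0.02, -0.07 and 0.03 by pair) and 0 at an unadjusted p under 0.05. RPS20, one of 2 lower without overlap (2.56%, against 3.76% of all genes), differed by -0.26 (SE 0.17). Of 47 translation factors, 38 had negative changes (80.9%, against 53.4% of all genes) and the median was -0.12. At an unadjusted p under 0.05 were 0, and 6 were lower with the replicate block, against 3.04% of all genes. PABPC1, the poly(A)-binding protein, was between 7.29 and 7.37 against 6.85 to 7.21 (-0.32, SE 0.16), EIF3B at 8.35, 8.31 and 8.02 against 7.74, 7.78 and 7.90 (-0.42, SE 0.22), and EIF2S1, the subunit that stress kinases phosphorylate, differed by -0.33 (SE 0.19). Among 77 splicing factors the median was -0.12, and SRSF11 was the gene lower at an unadjusted p under 0.05 (-0.33, SE 0.15).

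The 74 S phase and E2F target genes, which copy DNA and supply its building blocks, had a median of -0.11 (0.08, -0.28 and -0.05 by pair), which was 0.00 without –YBX1 replicate 2. Negative changes were found for 53 of them (71.6%, against 53.4% of all genes), and 19 were lower in all 3 pairs (25.7%, against 11.5%). In pairs 1 and 3 alone 20 were lower (27.0%, against 23.6%). At an unadjusted p under 0.05, 4 were lower (5.41%, against 1.72%) and 0 higher. Without –YBX1 replicate 2 these counts were 2 lower and 2 higher. In the 3 and 3 libraries 8 were lower without overlap (10.8%, against 3.76%) and 2 higher (2.70%, against 3.56%). BRCA2, of homologous recombination, was at 1.63, 1.05 and 1.86 in +YBX1 and 0.76, -1.05 and 0.08 in –YBX1 (-1.58, SE 0.53). LIG1, which joins Okazaki fragments, was at 3.71, 3.91 and 4.01 against 3.24, 3.53 and 2.96 (-0.63, SE 0.26). TIPIN, of the replication fork protection complex, differed by -0.60 (SE 0.25), and CHAF1B, of the chromatin assembly factor, by -0.34 (SE 0.16). These 4 named genes were lower in each pair and without overlap. Without –YBX1 replicate 2 BRCA2 was at -1.10, and it, TIPIN and CHAF1B then had an unadjusted p above 0.05. E2F1, at 5.25, 4.79 and 4.72 against 4.42, 5.18 and 4.15, overlapped between the groups and differed by -0.63 without that library. The 71 genes of G2/M and mitosis had a median of -0.04 (0.01, -0.10 and -0.06 by pair), and 0 had an unadjusted p under 0.05. CCNB1 and CDK1, the pair that drives entry into mitosis, differed by -0.10 (SE 0.32) and -0.03 (SE 0.15). CDC20, the activator of the anaphase-promoting complex, lay without overlap at 8.84, 9.25 and 9.04 against 8.83, 8.81 and 8.69. It was the only such gene of the list (1.41%, against 3.76% of all genes lower), and its pair 1 differed by -0.01.

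Of 52 genes of apoptosis and damage response, 2 were higher at an unadjusted p under 0.05 and 0 lower, against 1.36% and 1.72% of all genes, with a median of -0.02. BMF, a BH3-only protein that opposes BCL2, was at 0.05, -0.17 and -0.10 in +YBX1 and 0.58, 1.39 and 1.67 in –YBX1. Its change of 1.28 (SE 0.42) was 1.19 without –YBX1 replicate 2. SESN1, a stress-induced gene that restrains mTORC1, was at 2.78, 3.10 and 2.92 against 3.24, 3.95 and 3.36 (0.58, SE 0.23) and gave 0.37 without it, and BCL2L11, another BH3-only gene, differed by 0.40 (SE 0.21). CDKN1A, a cyclin-dependent kinase inhibitor, was at -0.08 (SE 0.27). The 39 genes of ATF4 and the integrated stress response had a median of 0.16 (0.04, 0.48 and -0.02), with 30 positive, and -0.04 without –YBX1 replicate 2. Next to PHGDH, the serine synthesis enzyme PSAT1 lay without overlap, at 6.89, 6.89 and 6.87 against 7.15, 7.83 and 7.03 (0.45, SE 0.30), a change of 0.20 without –YBX1 replicate 2. ATF4 itself differed by 0.21 (SE 0.22). Mitochondrially encoded genes took 10.0% to 11.4% of reads in the +YBX1 libraries, 10.6% in –YBX1 replicates 1 and 3, and 15.3% in –YBX1 replicate 2. Their median was 0.20 (-0.10, 0.66 and -0.01 by pair), and 0.01 without that library. ND5 was higher in each pair (0.58, SE 0.25), by 0.31 without it. That share moved with the interferon and ribosome biogenesis values in replicate 2, and its part in them was not tested. The 73 mitochondrial ribosomal protein genes had a median of -0.09 (0.01, -0.20 and 0.02 by pair), or -0.02 without –YBX1 replicate 2. MRPL33 was the gene higher at an unadjusted p under 0.05 (0.47, SE 0.20), 1.37% of the list against 1.36% of all genes.

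Squamous differentiation genes had medians of opposite sign in the pairs, at -0.83, 0.58 and 0.23 over 46 genes, and a median of -0.58 without –YBX1 replicate 2. KRT1, the suprabasal keratin, was at 5.99, 6.24 and 2.29 in +YBX1 and 3.59, 8.36 and 1.01 in –YBX1. Its spread within groups was wider than the difference of -0.52 (SE 1.49), which was -2.54 without that library. MAL, a raft protein of maturing squamous cells, was the gene lower at an unadjusted p under 0.05 (2.17%, against 1.72% of all genes). It had 5, 13 and 5 reads against 3, 2 and 0. The 37 epithelial keratin and junction genes had a median of -0.01 and the 50 mesenchymal and partial EMT genes -0.04, each with 0 at an unadjusted p under 0.05. VIM, FN1 and CDH2 differed by -0.19 (SE 0.31), 0.01 (SE 0.36) and 0.17 (SE 0.38), with VIM at 0.29 and CDH2 at 0.71 without –YBX1 replicate 2. CCN2, a YAP target, was at 2.14, 3.16 and 6.09 against 1.62, 2.19 and 3.49, lower in each pair and overlapping (-1.36, SE 0.79).

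The PI3K, AKT and mTOR pathway, the context in which YBX1 was studied, had 44 measured genes and a median of -0.08, or -0.13 without –YBX1 replicate 2. At an unadjusted p under 0.05, 1 gene was lower (2.27%, against 1.72% of all genes) and 0 higher. In all 3 pairs 13 of the 44 were lower (29.5%, against 11.5% of all genes) and 5 higher, and in pairs 1 and 3 alone 21 were lower (47.7%, against 23.6%). With the replicate block 5 were lower and 1 higher at an unadjusted p under 0.05, against 3.04% and 2.5% of all genes. The gene without the block was DEPTOR, an mTOR inhibitor at the limit of detection with 2, 4 and 5 reads against 0, 5 and 0. RPTOR, the scaffold of mTORC1, was at 4.95, 4.53 and 5.05 in +YBX1 and 4.76, 4.05 and 4.31 in –YBX1 (-0.47, SE 0.23). MAPKAP1, a subunit of mTORC2, lay without overlap at 8.42, 8.25 and 8.29 against 8.04, 7.72 and 8.13 (-0.35, SE 0.17). EIF4EBP2, which holds back eIF4E when mTORC1 is off, differed by -0.48 (SE 0.24). The 3 were lower in each pair, and each had an unadjusted p under 0.05 with the replicate block and above 0.05 without it. RPTOR and MAPKAP1 were at -0.31 and -0.23 without –YBX1 replicate 2. PIK3CA, the catalytic subunit p110-alpha, was higher in each pair and without overlap, with few reads, 1, 12 and 14 against 20, 24 and 26 (1.85, SE 1.04). Over the list 2 genes were higher and 2 lower without overlap (4.55% each, against 3.56% and 3.76% of all genes). EGFR differed by 0.09 (SE 0.41), and its 27-gene list of receptors, ligands and ERK feedback had a median of -0.02 with 0 at an unadjusted p under 0.05. The 28 genes often described as YB-1 targets had a median of 0.04 (0.03, 0.01 and 0.02 by pair) and 0 at an unadjusted p under 0.05, with MET at 0.07 (SE 0.21) and CDC6 at -0.11 (SE 0.21). The Y-box letters CTGATTGG, searched as above on either strand, were in a window of 657 of 10250 genes (6.41%) and in 3.97% of all windows. The median change was -0.02 with them and -0.02 without.

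Among metabolic and stress lists, NRF2 targets had 2 members higher at an unadjusted p under 0.05 (7.69%, against 1.36% of all genes). They were UGDH, which makes UDP-glucuronate, and FTL, the ferritin light chain. UGDH was at 5.12, 5.07 and 4.79 in +YBX1 and 5.74, 5.44 and 5.26 in –YBX1 (0.49, SE 0.19), and FTL at 9.19, 9.37 and 9.18 against 9.46, 9.68 and 9.69 (0.36, SE 0.15). Both kept their size without –YBX1 replicate 2, at 0.51 and 0.33, although the unadjusted p of FTL was then above 0.05. GCLM, of glutathione synthesis, also lay without overlap (0.54, SE 0.29). The median of the 26 targets was 0.12 (0.01, 0.34 and 0.04) and -0.05 without –YBX1 replicate 2. Of 34 glycolysis and hypoxia genes (median 0.10), EGLN1, an oxygen-sensing prolyl hydroxylase, was between 4.17 and 4.51 against 4.68 to 4.79 (0.43, SE 0.18). Sterol and fatty acid synthesis had 27 of 33 genes with negative changes (81.8%, against 53.4% of all genes), a median of -0.09 and 0 at an unadjusted p under 0.05. HSF1, the heat shock regulator, was the gene lower at an unadjusted p under 0.05 among 22 immediate early and heat shock genes (-0.30, SE 0.13). That is 4.55% of the list, against 1.72% of all genes. HSPA8, a constitutive HSP70, was at 6.61 in –YBX1 replicate 2 and between 8.30 and 9.15 in the other 5 libraries. Without that library HSPA8 differed by 0.12.

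Markers of other cells were few. Of the list of 20, COL1A1, LUM, CD68, CD14 and CD74 were measured, with 333 to 658 reads in all per +YBX1 library and 410 to 594 per –YBX1 library. LUM, an extracellular matrix proteoglycan of fibroblasts, had 0, 1 and 0 reads in +YBX1 and 9, 8 and 11 in –YBX1, at least 3.07-fold higher against a floor of 3 reads per library (adjusted p = 0.290 in limma). COL1A1, the other fibroblast gene, had 260, 110 and 471 reads against 303, 160 and 156 and showed no such difference. Of 6 genes abundant in SCC15 and scarce in SCC25, the summed reads were 98 to 117 in +YBX1 and 126 to 177 in –YBX1, against 4023 to 4634 in the SCC15 libraries. The median log2 change of the 6 genes was 0.35 (1.39, -0.02 and -0.07 by pair), with 4 positive and 2 negative. At an unadjusted p under 0.05, 1 was higher (16.7%, against 1.36% of all genes) and 0 lower. Their defining gene CDKN2A had 0, 4 and 3 reads against 1, 1 and 0, and SNED1 had 0 in all 6 libraries.

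SCC15, a mesenchymal-like oral cancer line given the same YBX1 knockdown, offers the nearest comparison. It was fitted in the same model, and the difference of the 2 knockdown changes had an adjusted p under 0.05 for 0 genes and an unadjusted p under 0.05 for 294 (2.26%). The interferon effectors summed to 567 to 673 CPM in all 6 SCC15 libraries, below every SCC25 library, and their median change there was 0.00. The study grew SCC15 in a medium with serum and SCC25 in one without, so line and medium cannot be told apart. IFI27 was 0.75 higher with loss of YBX1 in SCC25 and differed by -0.70 in SCC15 (adjusted p of the difference = 1.00 in limma). MRTO4 and BYSL were at 0.04 and 0.00 in SCC15, against -0.83 and -0.90 in SCC25. Both were named for their large falls in SCC25, which favours a smaller value in the other line. The unadjusted p of the difference in limma was 0.071 for MRTO4 and 0.061 for BYSL.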

How the data were processed

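RNA of the SCC25 libraries (QuantSeq 3′ FWD, single-end reads) was trimmed by the authors with Cutadapt, aligned to hg38 with HISAT2, assigned to genes by featureCounts, then filtered and normalised in limma. The deposited table holds log2 CPM values of 12 libraries and 12995 genes, with 0.5 added to each read count. Its lowest value per library was taken as 0 reads, and 100% of values then gave whole reads (tolerance 0.05). From 4780340 to 6090488 reads were counted per library. The library with 4780340 reads, SCC15 +YBX1 replicate 1, had 0.182 CPM per read. The library with 6090488 reads, SCC25 +YBX1 replicate 1, had 0.188. CPM values therefore carry a scaling per library that the counted reads alone do not give. The floor of 3 reads covers counting error only. A second deposited table, of the cell lines, was not used here.

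The deposited values were fitted with limma 3.58.1 (R 4.3.3) by linear models (lmFit, eBayes with a variance trend, two-sided, Benjamini-Hochberg over all genes, threshold 0.05), with all 4 groups in the fit and no block. P-values that are not called adjusted are unadjusted. Same-numbered libraries deviated together, with correlations of 0.148, 0.539 and 0.516 over 6497 genes, each over 0.1, and were therefore also compared as pairs. With 3 libraries a group these correlations cannot settle whether same-numbered libraries belong together. The fit was tested on simulated reads without pairs or an outlying library, which checks the code, not what these libraries can resolve. The members, the 29 gene lists and the tests were chosen with earlier results of these data known, and list counts are descriptions.

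Named were YBX1, genes within 1 Mb of it, per direction the 10 genes with the largest change and the 10 with the largest smallest pair change (above the median level, unadjusted p under 0.05, no overlap), and from each list up to 8 members by p or as leading members. Any other gene was named after its values were seen. Counts of genes without overlap when –YBX1 replicate 2 was left out, and list values from pairs 1 and 3 alone, were alternatives chosen after seeing the data. Gene positions come from GENCODE 44, promoter windows from RefSeq, and figures from matplotlib. Some genes are not reported here.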

Additional observations from a re-analysis of the deposited data

Results flagged for a closer look

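The SCC25 and SCC15 changes, or medians for lists, had opposite signs in every pair for 6 of the results followed. For the gene lists this difference was not tested. The effector medians by pair in SCC15 were only -0.07, -0.07 and -0.04. Those of pairs 2 and 3 equal the value of a gene with the same read count in both libraries, so no fall was shown. The median change of the interferon-stimulated effectors was 0.515 higher in SCC25 than in SCC15 (0.52 against 0.00), and that of the NRF2 targets was 0.190 higher (0.12 against -0.07). Without SCC25 –YBX1 replicate 2 the SCC25 medians of these lists were 0.03 and -0.05, and without both SCC25 libraries numbered 2 they were 0.22 and -0.000323. For single genes, the difference SCC25 minus SCC15 in limma was 1.46 for IFI27, 1.06 for ACOT13, 0.86 for ZNF318 and -0.72 for BOD1, each under 0.05 unadjusted and with an adjusted p of 1.00. BOD1 was lower in SCC25 –YBX1 in all 3 pairs and higher in SCC15 –YBX1 in all 3. Groups of 3 libraries are too small for a test of outlying samples.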

How the results depend on the processing

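Other scalings, variance models, filters and left-out libraries kept the direction of YBX1, whose log2 change lay between -2.37 and -1.57 when 1 library was left out, and its adjusted p stayed above 0.05 in each. The 31 genes followed kept sign and side of the threshold in all 527 gene and setting pairs. They were chosen because their groups did not overlap, so leaving out a library could not turn their sign. None was under the threshold in the main fit, so this agreement follows largely from the choice. The count at an adjusted p under 0.05 went from 0 to 6 without –YBX1 replicate 2 (0 to 6 over the left-out libraries) and to 2 without both libraries numbered 2. The genes are of few reads, such as ADGRL1. At an unadjusted p under 0.05, the replicate block gave 325 higher and 395 lower genes and 537 for the difference between the lines. With only the SCC25 libraries in the fit, 227 were higher and 242 lower with the block, and 154 and 181 without it. The adjusted p of YBX1 in limma was then 0.998 and 0.999, so its 0.290 rests on a spread shared with SCC15. Genes above the first quartile (9746) gave 112, 111 and 183, where fewer genes were tested. Leaving out 1 library gave 155 to 285 higher, 149 to 431 lower and 246 to 601 between the lines. Without –YBX1 replicate 2 the groups did not overlap for 1346 higher and 1274 lower genes, where fewer libraries must be apart. With the block 0 genes passed the adjusted test, and it changed no call at that threshold, while the lists' counts under 0.05 unadjusted were larger, as given beside them. Of the list medians, 287 of 319 were within the spread of their pairs. When 1 library was left out, the median ran from 0.0310 to 0.86 for the effectors and -0.16 to 0.0581 for G2/M. The median took both signs for 15 of 29 lists. These were G2/M, NF-kB targets (-0.11 to 0.26), the PI3K list (-0.13 to 0.00370), YB-1 targets (-0.0151 to 0.0748, and -0.0171 without both numbered 2), other cell markers (-0.15 to 0.44), squamous differentiation (-0.58 to 0.43), NRF2 targets (-0.05 to 0.29), ATF4 (-0.04 to 0.30), glycolysis (-0.07 to 0.21), EMT (-0.20 to 0.05), epithelial genes (-0.10 to 0.14), the EGF list (-0.07 to 0.07), immediate early genes (-0.15 to 0.07), apoptosis and damage response (-0.03 to 0.03) and cytosolic ribosomal proteins (-0.06 to 0.00), and the cause was not tested. Depth limits genes of few reads, where 3 reads are up to 0.624 CPM.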
